A study of Mus musculus with 12 samples.

Results

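The genes described here are 10 smooth muscle contractile genes, chosen by symbol, with earlier results of these data known: Acta2, Actg2, Tagln, Cnn1, Cnn2, Myl9, Tpm1, Tpm2, Tpm4 and Myh9. Each symbol matched 1 row through GENCODE release M21, so the members were 10 of the 54392 genes in the table. Of these, 9 passed a filter on low values and entered the tests, while Myl9 had at most 6.21 normalized counts in any library. Total RNA was sequenced from NIH-3T3 cells, an immortalised mouse fibroblast line, with 3 libraries each of the lines Crls1KO1 (KO1), Crls1KO2 (KO2) and Crls1KO3 (KO3) and of Crls1WT cells (WT). The KO lines were made with a plasmid that carries Cas9 and a guide RNA against Crls1, which encodes cardiolipin synthase, an enzyme of the inner mitochondrial membrane. Each KO line descends from 1 sorted cell, so a property of that cell and an effect of the edit cannot be told apart within a line. All lines, WT included, grew in the same medium with glucose, pyruvate, serum and uridine. The labels do not say whether WT cells went through transfection and sorting, or whether libraries of the same line stem from different cultures, and p-values therefore measure only the spread between these libraries, which may be technical.

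Contraction in smooth muscle comes from filaments of myosin II pulling on actin filaments. Tropomyosins lie along the actin filament and set which proteins reach it, while calponins and transgelins bind its side. Light chains attached to the myosin heavy chains are phosphorylated to switch the motor on. Fibroblasts use close relatives of the same proteins in stress fibres, and smooth muscle actin in them is the usual mark of a myofibroblast. Many of these genes are transcribed through serum response factor (SRF), which binds the CArG box and works with the cofactors myocardin and MRTF.

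Promoter windows from RefSeq (GRCm38.p6; 250 bases before to 50 after the transcription start) were on hand for 8 of the 10 members. A CArG box was found in 2 of these windows, those of Cnn2 and Myl9, against 1.63% of 32851 windows of all genes. A variant with 1 G or C at a central position was found in Acta2 and Myl9, against 8.5% of all windows. Neither form was found in the windows of Cnn1, Tpm1, Tpm2, Tpm4 and Myh9. The motif CATTCC, read on both strands, is the binding motif of TEAD factors and was present in the windows of Acta2 and Tpm1, against 14.7% of all windows. None of these motif matches overlapped another. The windows below are those with a CArG box or its variant, which hold the SRF element described above, and that of Tpm4, an abundant member whose window holds neither. They are read 5′ to 3′ on the gene's strand, with the CArG box or its variant in capitals.
Acta2, chr19:34255324-34255623, minus strand: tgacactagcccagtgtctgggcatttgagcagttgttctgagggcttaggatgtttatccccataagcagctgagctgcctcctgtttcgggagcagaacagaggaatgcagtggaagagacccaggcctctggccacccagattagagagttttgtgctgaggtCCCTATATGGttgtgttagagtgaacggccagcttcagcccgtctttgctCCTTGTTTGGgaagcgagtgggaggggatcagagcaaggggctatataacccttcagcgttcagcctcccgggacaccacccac
Cnn2, chr10:79988350-79988649, plus strand: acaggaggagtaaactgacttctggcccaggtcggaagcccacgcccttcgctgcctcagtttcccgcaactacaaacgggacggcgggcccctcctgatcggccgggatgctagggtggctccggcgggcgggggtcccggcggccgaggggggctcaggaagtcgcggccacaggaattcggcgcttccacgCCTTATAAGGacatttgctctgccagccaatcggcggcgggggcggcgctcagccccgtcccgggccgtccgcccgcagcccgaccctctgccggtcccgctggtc
Myl9, chr2:156775214-156775513, plus strand: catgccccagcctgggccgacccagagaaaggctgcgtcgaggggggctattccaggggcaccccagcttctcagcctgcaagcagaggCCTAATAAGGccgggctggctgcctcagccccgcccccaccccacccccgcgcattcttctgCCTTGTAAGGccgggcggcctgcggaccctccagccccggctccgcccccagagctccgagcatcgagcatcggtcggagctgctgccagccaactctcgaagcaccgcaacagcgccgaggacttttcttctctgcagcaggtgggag
Tpm4, chr8:72135038-72135337, plus strand: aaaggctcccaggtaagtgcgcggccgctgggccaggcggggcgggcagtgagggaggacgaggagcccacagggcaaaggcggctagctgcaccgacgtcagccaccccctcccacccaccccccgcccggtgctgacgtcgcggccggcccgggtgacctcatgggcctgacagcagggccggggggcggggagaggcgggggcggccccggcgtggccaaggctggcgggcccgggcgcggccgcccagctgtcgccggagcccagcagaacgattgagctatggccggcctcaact
The variant boxes of Acta2 began at positions -84 and -34 from the RefSeq start. The CArG box of Cnn2 began at -56 and that of Myl9 at -161, with a variant box at -99. A match describes these letters and does not show binding.

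The libraries held 32929242 to 42211807 reads, and Crls1 itself was lower in each clone than in WT. Its mean was 210 ± 2.67 normalized counts in KO1, 349 ± 21.1 in KO2, 381 ± 23.9 in KO3 and 815 ± 68.4 in WT (SD, n = 3 each). Normalized counts are reads divided by 1 size factor per library. Within groups, the chi-square per degree of freedom between libraries was 4.68 to 56.5, so no pair agreed within sampling noise. The highest values were those of WT replicate 1, and leaving it out changed the call of 1 member, Tpm2 in KO2. Fibroblast markers were abundant as a sum in all groups, and 9 of 10 passed the filter (Fap was at 0). The sums were 801495 to 838361 normalized counts in KO1, 898776 to 943383 in KO2, 858252 to 877266 in KO3 and 830200 to 911768 in WT, most of it Fn1 and Col1a2. Single markers differed, with Col3a1 averaging 7939 in KO1, 884 in KO2, 3664 in KO3 and 148 in WT. Pdgfra averaged 26299 in KO2 and 7355 in WT. Of 6 markers of differentiated smooth muscle, 5 were tested, and their sums were 2668 to 3076 in KO1, 2324 to 2476 in KO2, 2331 to 2398 in KO3 and 3606 to 3846 in WT. Most of each sum was Smtn (means of 2362 in KO1, 1600 in KO2, 1665 in KO3 and 3301 in WT), while Synpo2 was higher in the clones (328, 560 and 476 across KO1, KO2 and KO3, and 192 in WT), as was Des (172, 228 and 154, and 82.4 in WT). Myocd, the gene of myocardin, was at 0 reads in KO1, KO3 and WT and at 1 read in KO2, and Myh11, the smooth muscle myosin heavy chain, averaged 6.94 to 12.4 normalized counts per group. Myocd and Myh11 were thus at or near 0, and the members are named by their role in smooth muscle and not by the cell type measured.

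Sums of markers of other cell types also differed. Pericyte markers (5 listed, 2 tested) summed to 493 to 509 in KO1, 473 to 529 in KO2, 510 to 596 in KO3 and 8732 to 8960 in WT, nearly all of it Cspg4, with Kcnj8 at 0 throughout. The pericyte marker Rgs5 went the other way, with means of 43.2 in KO1, 72.0 in KO2, 25.5 in KO3 and 12.5 in WT. Cardiac markers (5 listed, 2 tested) summed to 190 to 202 in KO1, 75.6 to 113 in KO2, 57.5 to 76.7 in KO3 and 906 to 1165 in WT, mainly Tnnt2, with Actc1 at 0 throughout. Skeletal muscle markers (6 listed, 3 tested) summed to 13.8 to 14.8 in KO1, 146 to 214 in KO2, 5.26 to 11.4 in KO3 and 11.4 to 27.0 in WT, with Myod1 at 0 throughout. Most of the KO2 sum was Tnnt3 (means of 4.43 in KO1, 153 in KO2, 0 in KO3 and 0.994 in WT). Myh3 averaged 12.6 in KO2 and 6.02 in WT, whereas Acta1 averaged 5.53 in KO2 and 12.4 in WT. Endothelial markers (4 listed, 3 tested) summed to 182 to 232 in KO1, 26.1 to 87.9 in KO2, 27.2 to 74.6 in KO3 and 21.2 to 35.2 in WT, with Kdr at 0 in KO2. Epithelial markers (4 listed, 2 tested) summed to 344 to 371 in KO1, 183 to 207 in KO2, 305 to 327 in KO3 and 96.4 to 107 in WT, with Epcam at 0 in KO1, KO2 and WT and Krt18 at 0 in KO1. Most of the clone sums was Cdh1, with means of 350 in KO1, 185 in KO2, 307 in KO3 and 17.8 in WT, whereas Krt8 averaged 5.26, 9.59 and 4.41 across KO1, KO2 and KO3 and 84.8 in WT. Immune markers (4 listed, 3 tested) summed to 97.4 to 115 in KO1, 57.8 to 62.3 in KO2, 34.2 to 70.3 in KO3 and 48.2 to 85.8 in WT, with Cd3e at 0 in KO3 and WT. Their part in the differences below was not tested. In bulk RNA of these cell lines, fewer cells expressing a gene and less of its RNA per cell cannot be told apart.

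Against WT, 6 of the 9 tested members passed the test in KO1, 8 in KO2 and 6 in KO3, most of them lower in the clone. In KO1, 5 of 9 tested members fell and 1 rose, where 52.3% of all 15073 genes tested were called (25.4% fell and 26.9% rose). In KO2, 7 fell and 1 rose, where 60.4% of all genes were called (30.5% fell and 29.9% rose). In KO3, 5 fell and 1 rose, where 54.1% of all genes were called (27.3% fell and 26.8% rose). The KO1 and KO3 counts are near these backgrounds, in which more than every second gene was called. The median difference over the 9 members was -0.19 in KO1, -0.60 in KO2 and -0.45 in KO3, against 0.018, 0.0041 and 0.0032 over all genes tested. Differences throughout are of log2(normalized count + 1), which understates the change of weakly expressed genes, and adjusted p-values come from limma across all genes tested, with Benjamini-Hochberg adjustment and a threshold of 0.05. Acta2, Actg2, Tpm1 and Tpm4 fell in all 3 clones, as did 13.3% of all genes tested. No member rose in all 3 clones, against 12.9% of all genes, and none was called in opposite directions in different clones, against 8.38% of all genes. The clone and WT libraries did not overlap for 7 of the 9 members in KO1 (59.5% of all genes), for 8 in KO2 (62.4%) and for 6 in KO3 (58.0%).

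**Figure D1:**
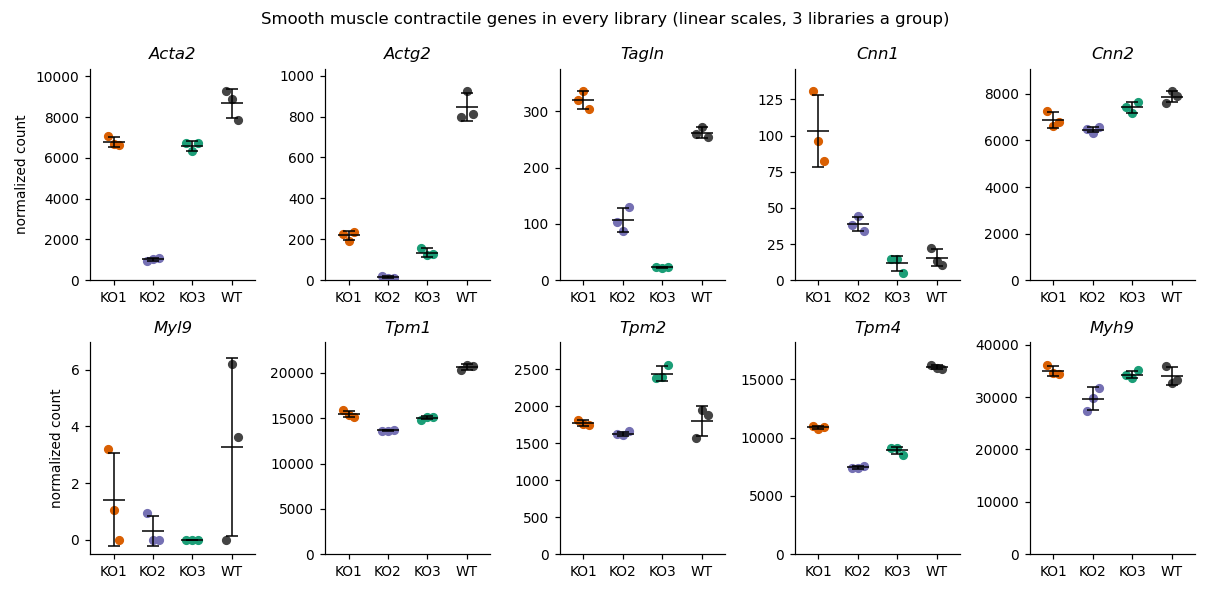
Normalized counts (linear vertical axes, each starting at 0 or just below) of the 10 members in every library of KO1, KO2, KO3 and WT. Points are libraries, long bars are means and whiskers are SDs (n = 3). Acta2 in KO2 (922 to 1091) and Tagln in KO3 (21.9 to 23.4) stand far below WT, and Cnn1 in KO1 (82.6 to 131) stands far above it.

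The smooth muscle actins fell in all clones, most in KO2. Acta2 (ENSMUSG00000035783.9, chromosome 19 at 34241090 to 34255590, minus strand, GRCm38) encodes smooth muscle alpha-actin. Its normalized counts were 7057, 6663 and 6630 in KO1, 922, 1044 and 1091 in KO2, 6723, 6322 and 6728 in KO3, and 9268, 8884 and 7858 in WT. Every clone library lay below every WT library, and the KO2 libraries lay far below all others. Acta2 fell in every clone, with differences from WT of -0.35 for KO1 (SE 0.07, adjusted p = 0.00155), -3.09 for KO2 (adjusted p = 1.5e-11) and -0.39 for KO3 (adjusted p = 0.000633, limma). The RefSeq window shown above places 2 variant CArG boxes before its start.

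With the median of the 20 nearest tested genes subtracted from each gene, the Acta2 differences were -0.23 in KO1 (adjusted p = 0.0661), -3.18 in KO2 and -0.26 in KO3 (adjusted p = 0.0364). The call in KO1 was thus lost under that alternative. Those neighbours had a median of -0.23 in KO1, 0.13 in KO2 and -0.20 in KO3.

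Actg2 (ENSMUSG00000059430.14, chromosome 6 at 83512905 to 83536265, minus strand) encodes gamma-2 actin, the actin of visceral smooth muscle. It had 226, 193 and 238 normalized counts in KO1, 19.6, 12.5 and 10.5 in KO2, 159, 121 and 127 in KO3, and 796, 924 and 815 in WT. No group overlapped another. Actg2 fell in every clone, with differences from WT of -1.95 for KO1 (SE 0.20, adjusted p = 4.71e-06), -5.84 for KO2 (adjusted p = 2.27e-10) and -2.64 for KO3 (adjusted p = 2.4e-07, limma). The KO2 value rests on 46 reads in all 3 libraries.

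Smooth muscle actins are a small part of the actin RNA of these cells. Summed over Acta2, Actg2, Acta1, Actc1, Actb and Actg1, actin counts were 112333 ± 2341 in KO1, 98798 ± 395 in KO2, 110442 ± 6024 in KO3 and 169154 ± 6354 in WT (SD, n = 3 each). Acta2 made up 6.04% ± 0.22 of that sum in KO1, 1.03% ± 0.09 in KO2, 5.98% ± 0.37 in KO3 and 5.13% ± 0.42 in WT. Actg2 made up 0.195%, 0.014% and 0.123% in KO1, KO2 and KO3, and 0.499% in WT. Acta2 thus took a share in KO1 and KO3 that lay above every WT library, while its level lay below. These shares are of normalized counts, without correction for gene length. The sum moved with the cytoplasmic actins: Actb fell by 0.66, 0.60 and 0.49 across KO1, KO2 and KO3 (adjusted p at most 0.000158, limma), and Actg1 fell by 0.54, 0.83 and 0.79 (adjusted p at most 6.49e-06). With quantile normalization Actb was at -0.35 in KO1 and -0.28 in KO2, and Actg1 at -0.24 and -0.51, all still called.

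**Figure D2:**
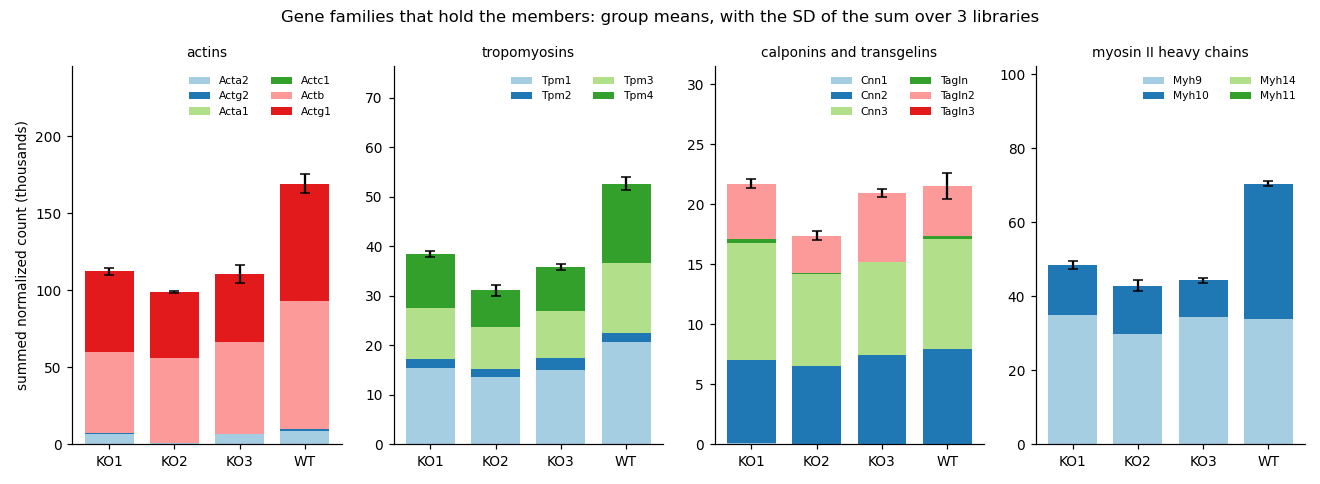
Summed normalized counts divided by 1000 (vertical axes from 0) of the actins, tropomyosins, calponins and transgelins, and myosin II heavy chains in KO1, KO2, KO3 and WT. Coloured segments are group means of each gene and whiskers are the SD of the sum (n = 3). The actin, tropomyosin and myosin sums are higher in WT than in each clone, and the calponin and transgelin sum is 17367 in KO2 and 21531 in WT.

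Among the tropomyosins, Tpm1 and Tpm4 fell in all clones, while Tpm2 rose in KO3. Tpm4 (ENSMUSG00000031799.9, chromosome 8 at 72134975 to 72153142, plus strand) encodes a low molecular weight tropomyosin of non-muscle cells. It had 11026, 10767 and 10894 normalized counts in KO1, 7389, 7391 and 7595 in KO2, 9099, 9097 and 8522 in KO3, and 16224, 15937 and 15915 in WT. The 4 groups were fully separated, with KO2 lowest. Tpm4 fell in every clone, with differences from WT of -0.56 for KO1 (SE 0.04, adjusted p = 3.24e-07), -1.10 for KO2 (adjusted p = 6.17e-10) and -0.85 for KO3 (adjusted p = 5.14e-09, limma). Subtracting the neighbours' median gave -0.25, -0.99 and -0.40, all still called. Of its 31-base stretches 19.97% also occur in other annotated genes, mainly Gm7809, and with Gm7809 added the differences were -0.55, -1.10 and -0.85. Its RefSeq window above holds no CArG box. That window begins at 72135038, inside the gene as GENCODE places it, so the bases before the GENCODE start were not searched.

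Tpm1 (ENSMUSG00000032366.15, chromosome 9 at 67022590 to 67049406, minus strand) encodes alpha-tropomyosin and has 21 annotated transcripts, which the gene counts do not separate. It had 15871, 15361 and 15161 normalized counts in KO1, 13638, 13618 and 13686 in KO2, 14830, 15156 and 15171 in KO3, and 20328, 20854 and 20810 in WT. All clone libraries lay below all WT libraries, and the KO1 and KO3 ranges overlapped. Tpm1 fell in every clone, with differences from WT of -0.42 for KO1 (SE 0.04, adjusted p = 2.89e-06), -0.60 for KO2 (adjusted p = 8.79e-08) and -0.46 for KO3 (adjusted p = 1.05e-06, limma). The neighbours of Tpm1 moved the same way, with medians of -0.27, -0.18 and -0.27, and subtracting them left -0.15 (adjusted p = 0.0331), -0.46 and -0.18 (adjusted p = 0.0132).

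Tpm2 (ENSMUSG00000028464.16, chromosome 4 at 43514711 to 43523765, minus strand) encodes beta-tropomyosin, which smooth muscle makes in quantity. Its normalized counts were 1818, 1756 and 1745 in KO1, 1620, 1609 and 1662 in KO2, 2377, 2395 and 2556 in KO3, and 1569, 1946 and 1878 in WT. The KO3 libraries lay above all others, and WT replicate 1 lay below the KO1 and KO2 libraries while the other WT libraries lay above them. Tpm2 rose by 0.45 in KO3 (SE 0.07, adjusted p = 0.000218). Its difference was -0.01 in KO1 (95% interval -0.17 to 0.15, adjusted p = 0.892) and -0.13 in KO2 (-0.29 to 0.02, adjusted p = 0.129, limma). In KO2 it was called at -0.23 without WT replicate 1 (adjusted p = 0.00163) and at -0.36 with the neighbours' median subtracted (adjusted p = 0.00421).

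The tropomyosin sum, with Tpm3, was 38487 ± 647 in KO1, 31075 ± 1171 in KO2, 35788 ± 614 in KO3 and 52679 ± 1343 in WT (SD, n = 3 each). Within it, Tpm4 made up 28.3%, 24% and 24.9% in KO1, KO2 and KO3, and 30.4% in WT. Tpm2 made up 4.61%, 5.25% and 6.83% in the clones and 3.42% in WT. Tpm1 held 40.2%, 44.0% and 42.1% in the clones and 39.3% in WT.

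Transgelin and calponin 1, classical markers of the contractile smooth muscle cell, stood at a different level in each clone. Tagln (ENSMUSG00000032085.5, chromosome 9 at 45929619 to 45936058, minus strand) encodes transgelin, also called SM22 alpha. It had 320, 336 and 304 normalized counts in KO1, 103, 88.2 and 129 in KO2, 22.8, 21.9 and 23.4 in KO3, and 260, 272 and 254 in WT. No group overlapped another, with KO1 above WT and KO2 and KO3 below. Tagln fell in KO2 (-1.31, SE 0.14, adjusted p = 5.43e-06) and in KO3 (-3.47, adjusted p = 8.69e-10), and its difference in KO1 was 0.29 (95% interval -0.02 to 0.59, adjusted p = 0.106, limma). The KO1 difference passed the threshold only when KO1 and WT were fitted alone (adjusted p = 0.0361).

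The Tagln values carry a limit of annotation. Gm48529, a gene on the opposite strand, covers 1241 of its exon bases (62.4%), and reads were counted with a strandedness not given in the sources used here. Gm48529 averaged 57.6 normalized counts in KO1, 79.6 in KO2, 46.2 in KO3 and 51.0 in WT. Pcsk7, also on the opposite strand, covers 108 exon bases of Tagln (5.4%). It averaged 1134 normalized counts in KO1, 1260 in KO2, 880 in KO3 and 1153 in WT, and its part in the Tagln values was not tested. With Gm48529 added to Tagln, a version chosen after seeing the data, the differences were 0.27 in KO1 (adjusted p = 0.0861), -0.75 in KO2 (adjusted p = 0.000186) and -2.17 in KO3 (adjusted p = 1.8e-08, limma).

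Cnn1 (ENSMUSG00000001349.5, chromosome 9 at 22099216 to 22109630, plus strand) encodes calponin 1, the actin-binding protein of differentiated smooth muscle. It had 131, 96.0 and 82.6 normalized counts in KO1, 38.3, 44.1 and 34.3 in KO2, 14.5, 14.9 and 5.33 in KO3, and 22.3, 13.5 and 10.8 in WT. All KO1 and KO2 libraries lay above WT, and the KO3 and WT libraries overlapped. Cnn1 rose by 2.69 in KO1 (SE 0.37, adjusted p = 6.24e-05) and by 1.32 in KO2 (adjusted p = 0.00793), with a difference of -0.45 in KO3 (95% interval -1.25 to 0.35, adjusted p = 0.325, limma). The WT level rests on 44 reads in 3 libraries. Cnn1 and Tagln therefore moved in opposite directions in KO2, where both were called.

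Cnn2 (ENSMUSG00000004665.10, chromosome 10 at 79988584 to 79996062, plus strand) encodes calponin 2, the calponin of non-muscle cells. It had 7277, 6620 and 6775 normalized counts in KO1, 6492, 6329 and 6567 in KO2, 7432, 7180 and 7666 in KO3, and 7627, 8110 and 7889 in WT. KO1 and KO2 lay below WT, and KO3 overlapped it. Cnn2 fell in KO1 (-0.19, SE 0.05, adjusted p = 0.0055) and in KO2 (-0.28, adjusted p = 0.000283), and its difference in KO3 was -0.08 (95% interval -0.19 to 0.02, adjusted p = 0.165, limma). With quantile normalization it was uncalled in KO1 (-0.07, adjusted p = 0.342) and KO2 (-0.12, adjusted p = 0.11). With the neighbours' median subtracted it was called in all clones (-0.43, -0.46 and -0.55), since its neighbours had medians of 0.29, 0.21 and 0.47. Its window above carries a CArG box.

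The calponin and transgelin sum, with Cnn3, Tagln2 and Tagln3, was 21712 ± 401 in KO1, 17367 ± 361 in KO2, 20949 ± 349 in KO3 and 21531 ± 1063 in WT (SD, n = 3 each). Cnn1 and Tagln together were a minor part: Tagln made up 1.47%, 0.615% and 0.108% in KO1, KO2 and KO3, and 1.22% in WT, and Cnn1 made up 0.474%, 0.224% and 0.056%, and 0.073% in WT.

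Of the myosin members, Myh9 passed the test against WT in KO2 alone and Myl9 was too low to test. Myh9 (ENSMUSG00000022443.17, chromosome 15 at 77760587 to 77842175, minus strand) encodes the heavy chain of non-muscle myosin IIA. It had 36114, 34549 and 34434 normalized counts in KO1, 27428, 29911 and 31771 in KO2, 34158, 33654 and 35134 in KO3, and 35905, 32688 and 33300 in WT. The KO2 libraries lay below all others, and KO1, KO3 and WT overlapped. Myh9 fell by 0.19 in KO2 (SE 0.06, adjusted p = 0.0156), and its difference was 0.05 in KO1 (95% interval -0.09 to 0.18, adjusted p = 0.565) and 0.02 in KO3 (-0.12 to 0.15, adjusted p = 0.848, limma). The KO2 call was lost without KO2 replicate 1 (-0.14, adjusted p = 0.069), with quantile normalization (-0.10, adjusted p = 0.169) and in a fit of KO2 and WT alone (adjusted p = 0.0821). With the neighbours' median subtracted Myh9 was called lower in all clones (-0.30, -0.62 and -0.41), because its neighbours had medians of 0.36, 0.55 and 0.38.

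Its paralogue Myh10, the heavy chain of non-muscle myosin IIB, fell by 1.44, 1.47 and 1.87 across KO1, KO2 and KO3 (SE 0.05, adjusted p at most 4.51e-10, limma). Myh9 thus made up 72.2% ± 0.50 of the myosin II heavy chain counts in KO1, 69.2% ± 2.76 in KO2, 77.4% ± 0.54 in KO3 and 48.2% ± 2.44 in WT (SD, n = 3 each). The sum of Myh9, Myh10, Myh14 and Myh11 was 48512 ± 1045 in KO1, 42906 ± 1447 in KO2, 44330 ± 726 in KO3 and 70468 ± 577 in WT.

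Myl9 (ENSMUSG00000067818.6, chromosome 2 at 156775420 to 156781658, plus strand) encodes the regulatory light chain of smooth muscle myosin. It was at 3.21, 1.06 and 0 normalized counts in KO1, 0.93, 0 and 0 in KO2, 0 in each KO3 library, and 0, 6.21 and 3.61 in WT. These are 4, 1, 0 and 10 reads in KO1, KO2, KO3 and WT, and a count of 0 allows up to 3 reads over a group. It did not pass the filter on low values and was not tested. The authors' deposited table gives adjusted p-values of 0.709, 0.258 and 0.15 for Myl9 in KO1, KO2 and KO3. Its window above holds a CArG box and a variant.

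**Figure D3:**
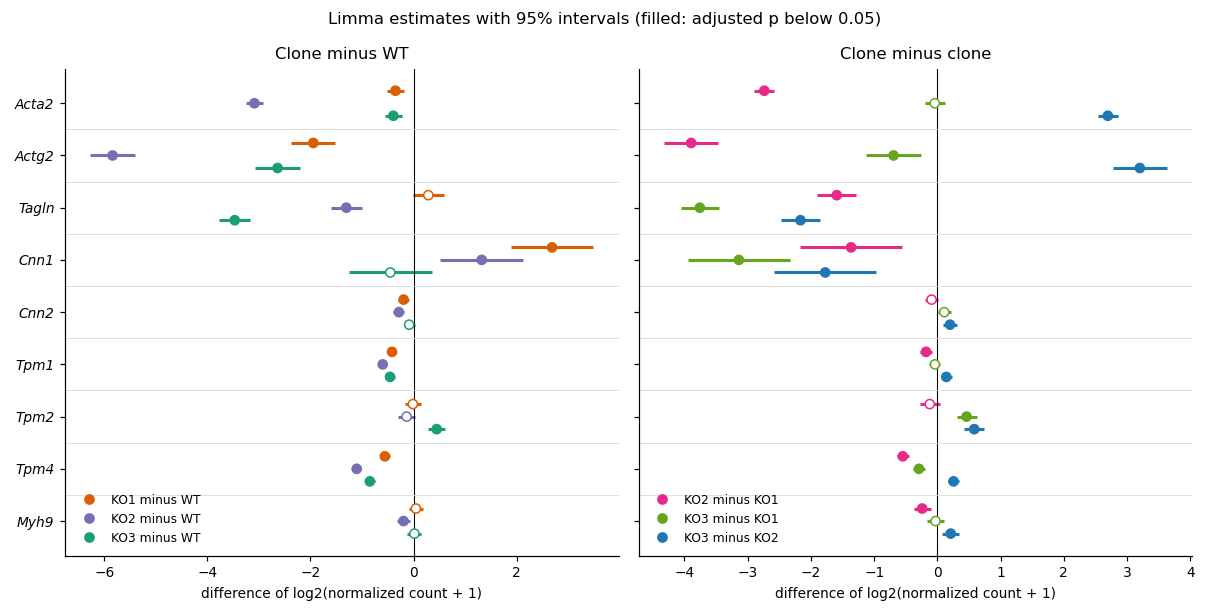
Differences of log2(normalized count + 1) of the 9 tested members, for each clone minus WT (left) and for each pair of clones (right), from limma. Points are estimates, horizontal bars are 95% intervals and filled points have an adjusted p below 0.05. Acta2 and Actg2 in KO2 and Tagln in KO3 lie farthest to the left of 0 in the left panel, and Cnn1 in KO1 farthest to the right.

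Per kilobase of exon, the order of the members changed with the clone. In WT, Tpm4 led at 7274 normalized counts per kilobase, followed by Acta2 at 3948, Cnn2 at 3201, Tpm1 at 3186 and Myh9 at 2627. Tpm2 at 618 and Actg2 at 543 came next, then Tagln at 132, Cnn1 at 5.68 and Myl9 at 2.82. Neighbours in that order overlapped between libraries for Cnn2 and Tpm1, Tpm2 and Actg2, and Cnn1 and Myl9. In KO1 the level of Acta2 per kilobase was again second, at 3089 after Tpm4 at 4946. In KO2, Acta2 was sixth at 464 and Actg2 was ninth at 9.12, after Cnn1 at 14.2, which overlapped it. In KO3, Acta2 at 3001 overlapped Cnn2 at 3019, and Tagln was at 11.4 after Actg2 at 87.0. Tpm4 held the highest level per kilobase in all 4 groups. The lengths used were those of all annotated exons merged, 6485 bases for Tpm1 and 2203 for Tpm4, not of the transcripts expressed. Before division by length, Tpm1 stood above Tpm4 in every group (means of 20664 against 16026 in WT). The order therefore depends on these lengths.

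Differences between clones were tested directly. KO2 was lower than KO1 for 7 of 9 members and higher for none, where 44.4% of all genes tested were called (23.9% lower and 20.5% higher). KO3 was lower than KO1 for 4 members and higher for 1, where 43.6% of all genes were called (23.4% lower and 20.3% higher). KO3 was higher than KO2 for 7 members and lower for 2, where 53.1% of all genes were called (26.1% higher and 27.0% lower). The median over members was -0.55 for KO2 minus KO1, -0.04 for KO3 minus KO1 and 0.21 for KO3 minus KO2, against -0.018, -0.010 and -0.0059 over all genes. Libraries did not overlap for all 9 members between KO2 and KO1 (59.7% of all genes), for 5 between KO3 and KO1 (59.7%) and for 9 between KO3 and KO2 (62.0%).

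Acta2, Actg2, Tpm1, Tpm4 and Myh9 were lower in KO2 than in both other clones. For Acta2, KO2 minus KO1 was -2.74 (adjusted p = 1.26e-10, limma) and that of KO3 minus KO2 was 2.70 (adjusted p = 6.57e-11), while KO3 minus KO1 was -0.04 (95% interval -0.20 to 0.12, adjusted p = 0.687). For Actg2 the same differences were -3.89 and 3.20, and KO3 minus KO1 was -0.69 (adjusted p = 0.0129). That last call was lost without KO1 replicate 3 (adjusted p = 0.0509), without KO3 replicate 2 (adjusted p = 0.0508) or with quantile normalization (-0.48, adjusted p = 0.0546). For Tpm4, KO2 minus KO1 was -0.55, KO3 minus KO1 was -0.29 (uncalled at -0.15 with the neighbours' median subtracted, adjusted p = 0.065) and KO3 minus KO2 was 0.26. For Tpm1, KO2 minus KO1 was -0.18 (adjusted p = 0.00299), KO3 minus KO1 was -0.04 (95% interval -0.13 to 0.05) and KO3 minus KO2 was 0.14. Quantile normalization turned the last to -0.01, and with it KO3 minus KO1 was -0.15 and called (adjusted p = 0.00491). For Myh9, KO2 minus KO1 was -0.24 (adjusted p = 0.00702), KO3 minus KO1 was -0.03 (95% interval -0.16 to 0.10) and KO3 minus KO2 was 0.21 (adjusted p = 0.0119). This last difference was uncalled without KO2 replicate 1 (0.15, adjusted p = 0.0516) and with quantile normalization (0.10, adjusted p = 0.186).

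Tagln and Cnn1 were lower, and Tpm2 was higher, in KO3 than in both other clones. For Tagln the difference was -1.59 for KO2 minus KO1, -3.76 for KO3 minus KO1 (adjusted p = 1.65e-09) and -2.16 for KO3 minus KO2 (adjusted p = 9.38e-08, limma). With Gm48529 added, these were -1.02, -2.44 and -1.42, all called. For Cnn1 they were -1.37 (adjusted p = 0.00957), -3.14 (adjusted p = 2.6e-05) and -1.77 (adjusted p = 0.00142). For Tpm2, KO3 minus KO1 was 0.46 (adjusted p = 0.000267), the difference of KO3 from KO2 was 0.58 (adjusted p = 2.66e-05) and KO2 minus KO1 was -0.12 (95% interval -0.28 to 0.04, adjusted p = 0.20). For Cnn2, KO3 minus KO2 was 0.20 (adjusted p = 0.00425), which turned to -0.09 with the neighbours' median subtracted and was uncalled with quantile normalization (0.11, adjusted p = 0.161). KO2 minus KO1 was -0.09 for Cnn2 (95% interval -0.20 to 0.02) and KO3 minus KO1 was 0.11 (0.00 to 0.22, adjusted p = 0.0939), that difference being called without KO1 replicate 1 (0.15, adjusted p = 0.0419). Actg2, Tagln, Cnn1 and Tpm4 differed in all 3 pairs of clones, as did 16.0% of all genes tested.

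Related genes of the contractile apparatus and its control were taken from 6 lists, whose counts stand against the 52.3% of all genes tested that were called in KO1, 60.4% in KO2 and 54.1% in KO3. Among smooth muscle-restricted genes, 11 of 15 were tested, of which 3 rose against 7 that fell in KO1, 4 against 5 in KO2 and 3 against 7 in KO3, with medians of -0.49, -0.35 and -0.65. Lmod1, which nucleates actin filaments in smooth muscle, fell in each clone (-1.61 for KO1, -2.45 for KO2 and -1.36 for KO3, SE 0.22). Smtn, the gene of smoothelin, fell by 0.49, 1.05 and 0.99 (SE 0.09), while Des, the intermediate filament desmin, rose by 1.06, 1.48 and 0.91 (SE 0.17). Nexn, an actin-binding protein of the muscle Z-disc, had no read in KO1 or KO3, 1 read in KO2 and 24.2 ± 7.31 normalized counts in WT, and it passed the filter only through WT. Casq2, among the genes that rose in each clone, averaged 48.8 in KO1, 14.9 in KO2, 30.8 in KO3 and 4.05 in WT. Of the WT libraries only replicate 2 reached the filter value, at 10.4, so Casq2 passed through clone libraries. Its rises are therefore not independent of the filter.

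Among other actins, tropomyosins and calponin relatives, 7 of 11 were tested, of which 0 rose against 5 that fell in KO1, 0 against 7 in KO2 and 1 against 5 in KO3, with medians of -0.54, -0.70 and -0.58. Without WT replicate 3, 1 rose in KO1. Acta1, tested in this list, averaged 4.14 normalized counts in KO1, 5.53 in KO2, 7.05 in KO3 and 12.4 in WT. It passed the filter only through WT replicates 1 and 3 and KO3 replicate 1. Its falls in KO1 and KO2 are therefore not independent of the filter. Tpm3 fell by 0.45, 0.77 and 0.59 (SE 0.09) and Tmod3, which caps the slow-growing filament end, by 0.66, 0.69 and 0.58 (SE 0.08). Among stress fibre and focal adhesion proteins, 17 of 18 were tested, of which 3 rose against 8 that fell in KO1, 4 against 11 in KO2 and 2 against 9 in KO3, with medians of -0.15, -0.27 and -0.26. With quantile normalization the count that fell in KO2 was 7. Pdlim5, a scaffold of the Z-disc and stress fibres, fell by 1.41, 1.68 and 1.48 (SE 0.07), and Synpo, the actin-bundling protein synaptopodin, by 1.28, 1.01 and 1.26 (SE 0.06). Palld, a stress fibre protein, fell by 0.44, 0.51 and 0.75, and Actn4, an actin crosslinker, by 0.54, 0.96 and 0.68.

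Among non-muscle myosin II genes and their regulators, 13 of 14 were tested, of which 4 rose against 5 that fell in KO1, 2 against 5 in KO2 and 4 against 2 in KO3, with medians of -0.11, -0.11 and 0.04. Myl12b was left out because its symbol matched 2 rows, not for low values. In 1 of these rows it averaged 2337 normalized counts in KO1, 2929 in KO2, 2450 in KO3 and 3496 in WT. The 7 called in KO2 and the 6 called in KO3 are below the backgrounds of 60.4% and 54.1%. In KO2, 4 rose without WT replicate 1, 1 rose without WT replicate 3 or KO2 replicate 3, and 3 fell without WT replicate 3. Mylk, the kinase that phosphorylates the regulatory light chain, also stands among the smooth muscle-restricted genes and fell by 0.56, 0.22 and 0.75 (SE 0.07), the KO2 call being lost without WT replicate 3 (adjusted p = 0.0588). Myh14, the heavy chain of myosin IIC, differed by 2.45 in KO1 (adjusted p = 0.0295), 2.64 in KO2 (adjusted p = 0.0176) and 2.03 in KO3 (adjusted p = 0.0617, limma), from a WT mean of 3.50 ± 5.07 normalized counts. Its WT libraries held 1.18, 9.32 and 0 normalized counts, so Myh14 passed the filter only through clone libraries. Without WT replicate 3 it was uncalled in KO1 (adjusted p = 0.117) and KO2 (adjusted p = 0.0756). The KO1 call was also lost without WT replicate 1 (adjusted p = 0.0667) or KO1 replicate 1 (adjusted p = 0.119), the KO2 call also without KO2 replicate 3 (adjusted p = 0.0591), and without WT replicate 2 it was called in KO3 (2.97, adjusted p = 0.00732). In KO1 it was likewise uncalled with the replicate block (adjusted p = 0.0523), quantile normalization (adjusted p = 0.123), only KO1 and WT fitted (adjusted p = 0.0567), the neighbours' median subtracted (adjusted p = 0.053), a pseudocount of 5 (1.38, adjusted p = 0.054) or edgeR (adjusted p = 0.0808). In KO2 it was uncalled with edgeR (adjusted p = 0.0573).

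Among SRF and its cofactors, 6 of 7 were tested, of which 2 rose against 1 that fell in KO1, 2 against 3 in KO2 and 0 against 4 in KO3, with medians of -0.06, -0.16 and -0.20. Srf fell by 0.51, 0.86 and 0.57 (SE 0.08, adjusted p at most 0.0002, limma), and it was at -0.28 in KO1 and -0.56 in KO2 with the neighbours' median subtracted, both called. Mrtfa, a cofactor that senses free actin, differed by -0.09 in KO1 (adjusted p = 0.188), 0.26 in KO2 (adjusted p = 0.00155) and -0.17 in KO3 (adjusted p = 0.021). The KO3 call of Mrtfa was lost without KO3 replicate 2 (adjusted p = 0.0782), and its KO2 call with the neighbours' median subtracted (0.04, adjusted p = 0.619). With that subtraction Mrtfa was called in KO1 (-0.28, adjusted p = 0.00258). The ETS cofactors Elk3 and Elk4 differed by 0.21 and -0.11 in KO1, by -0.27 and -0.25 in KO2 and by 0.12 and -0.12 in KO3. The Elk3 call in KO1 was lost without WT replicate 1 (0.14, adjusted p = 0.0713), KO1 replicate 1 (adjusted p = 0.0553) or KO1 replicate 3 (adjusted p = 0.0714). In KO2 the Elk3 call was lost with quantile normalization (-0.17, adjusted p = 0.108) and turned to 0.0932 with the neighbours' median subtracted, where Elk4 turned to 0.17, both uncalled. The Elk4 call in KO2 did not hold without WT replicate 1 (adjusted p = 0.0648), without WT replicate 3 (adjusted p = 0.0714), KO2 replicate 1 (adjusted p = 0.0501) or KO2 replicate 2 (adjusted p = 0.119). The count that rose in KO1 was 0 or 1 when any KO1 or WT library was left out, and in KO2 it was 1 without WT replicate 2 or 3 or without KO2 replicate 1 or 3.

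Among SRF immediate early targets, all 8 were tested, of which 6 rose against 1 that fell in KO1, 6 against 1 in KO2 and 4 against 2 in KO3, with medians of 0.85, 0.91 and 0.66. Those of the Egr and Fos families encode transcription factors that serum induces through SRF and the ETS cofactors. Egr1 rose by 1.79, 1.75 and 1.55 across KO1, KO2 and KO3 (SE 0.06), Egr2 by 3.40, 2.76 and 3.10 (SE 0.12) and Egr3 by 2.43, 2.00 and 2.45 (SE 0.10). Ccn1, a secreted matrix protein, fell by 0.63, 2.07 and 1.19 (SE 0.07). The 3 clones share their WT libraries, so these values are not independent of each other.

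**Figure D4:**
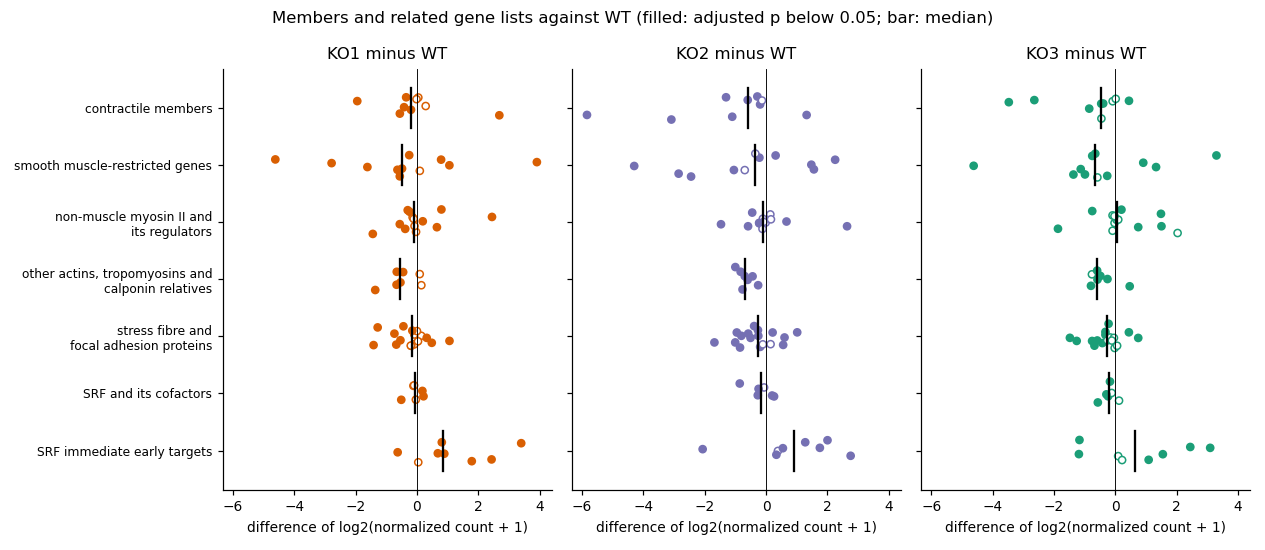
Differences of log2(normalized count + 1) of each clone minus WT, 1 panel per clone, for the contractile members and 6 related gene lists (rows). Points are tested genes, filled where the adjusted p was below 0.05, and the vertical bar is the median of the row. The immediate early targets have medians of 0.85, 0.91 and 0.66, and the other actins and tropomyosins -0.54, -0.70 and -0.58.

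The genes most like Acta2, Tagln and Cnn1 across the 12 libraries were taken from 10378 genes by Pearson's r of log2 values, as a description without a test, since the libraries fall into 4 groups. For Acta2 the highest were Tram1 (r = 0.989), Rhobtb1 (0.988) and Nsg1 (0.988). Tram1 had a mean of 1215 normalized counts in KO1, 0.311 in KO2, 1295 in KO3 and 1410 in WT, so it was near 0 in the clone where Acta2 was lowest. For Tagln the highest were Apol10b (0.988), Grap (0.987) and Atg9a (0.986). Grap had means of 208 in KO1, 29.2 in KO2, 0.71 in KO3 and 216 in WT. For Cnn1 they were Nrbp1 (0.971), Pcdhb9 (0.955) and Btbd3 (0.947), of which Pcdhb9 had means of 1658 in KO1, 987 in KO2, 649 in KO3 and 650 in WT.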

How the data were processed

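Gene expression was measured in 12 libraries, 3 each of KO1, KO2, KO3 and WT. The submitters' processing notes name GRCm38 (mm10), cutadapt, DESeq2 1.24.0 and Salmon 0.14.1, with settings not given in the sources used here. The authors deposited normalized counts, treated as a non-negative signal. Of each library's values, 99.94% to 99.99% were whole multiples of 1 step within 0.02, which gave the reads (perhaps rounded Salmon estimates) used with edgeR 4.0.16 and DESeq2 1.42.0 as alternatives. EdgeR called 7879, 9124 and 8119 genes in KO1, KO2 and KO3 against WT, and limma 7878, 9105 and 8151. The authors also deposited log2 fold changes and adjusted p-values per clone, per the file headers.

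Symbols came from GENCODE M21 (35 of 54392 identifiers unmatched). Limma 3.58.1 (R 4.3.3, trended prior, 4 groups in 1 fit, two-sided) was applied to log2(value + 1) of 15073 genes with at least 10 normalized counts in at least 3 libraries, adjusted over all of them. From each related list, up to 4 genes with the smallest largest-of-3 adjusted p were named, of which 1 is not reported here. Read sharing was counted as common 31-base stretches of annotated transcripts. Members, lists and tests were chosen with earlier results of these data known. Steps were tested on simulated data. Alternatives were other pseudocounts (0.5 and 5), no filter, quantile normalization, a replicate block, fits of 2 groups, subtracting the median of 20 neighbours, and leaving out each library. The floor of 3 reads covers counting error only. Unused sample columns numbered 0.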

Additional observations from a re-analysis of the deposited data

Results flagged for a closer look

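The differences between clones that passed the test (limma, adjusted p below 0.05, all 15073 genes) are listed because the clones carry the same contrast with WT. KO2 minus KO1 was -2.74 for Acta2, -3.89 for Actg2, -1.59 for Tagln, -1.37 for Cnn1, -0.18 for Tpm1, -0.55 for Tpm4 and -0.24 for Myh9. KO3 minus KO1 was -0.69 for Actg2, -3.76 for Tagln, -3.14 for Cnn1, 0.46 for Tpm2 and -0.29 for Tpm4. KO3 minus KO2 was 2.70 for Acta2, 3.20 for Actg2, -2.16 for Tagln, -1.77 for Cnn1, 0.20 for Cnn2, 0.14 for Tpm1, 0.58 for Tpm2, 0.26 for Tpm4 and 0.21 for Myh9. Each clone descends from 1 sorted cell, so these are differences between 3 lines.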

How the results depend on the processing

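Of 22 alternatives, 12 left out 1 library each, and each comparison had 16. The number of members called stayed within 1.5 times that reported in every comparison and alternative. Of the member differences under alternatives, 833 kept their direction and side of the threshold, 15 lost and 9 gained a call, and 11 changed sign. Of those 11, Cnn2 and Tpm1 in KO3 minus KO2 also lost a call, and Myh9 gained one in KO1 (adjusted p = 0.00659) and KO3 (adjusted p = 0.000638). For Tpm2 in KO1 the changed values were 0.0175 (quantile normalization), 0.0468 (without WT replicate 2) and 0.0212 (without WT replicate 3), with -0.11 to 0.0468 over the libraries left out. For Myh9 they were -0.30 in KO1 and -0.41 in KO3 with the neighbours' median subtracted, and in KO3 -0.0012 (quantile normalization), -0.0112 (without WT replicate 2) and -0.0013 (without KO3 replicate 3), with -0.0112 to 0.0565 over the libraries left out. For Cnn2 they were -0.12 in KO3 minus KO1 and -0.0938 in KO3 minus KO2 with the neighbours' median subtracted. For Tpm1 it was -0.0137 in KO3 minus KO2 under quantile normalization. With the neighbours' median subtracted, Elk4 was at 0.0339, 0.17 and 0.12 in KO1, KO2 and KO3, and Elk3 at 0.0932 in KO2 and -0.0686 in KO3. The cause was not tested.

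The calls of Acta2, Actg2, Tpm1 and Tpm4 against WT held in every alternative, except that of Acta2 in KO1 with the neighbours' median subtracted. Named genes of the related lists stayed on their side of the threshold in 1125 cases, lost a call in 25 and gained one in 2. The differences of Nexn depend on the pseudocount (-2.52 in KO1 at 5), because its clone levels are near 0.

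Libraries that share a number were not shown to be paired. Deviations from group means correlated at -0.22 to 0.12 over 18 such pairs, and 3 of 12 libraries correlated best with their own number. With the replicate block, the counts of members called were 6, 8 and 6 in KO1, KO2 and KO3, and 7, 5 and 9 between clones, and the related lists had 131 calls against 135. Depth limits Myl9, which had at most 10 reads in a group, and Cnn1 in WT and KO3.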
